A study of Drosophila melanogaster with 7 samples.

Results

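The genes described here are the 8 core components of the Drosophila melanogaster circadian clock, per, tim, Clk, cyc, cry, vri, Pdp1 and cwo. They were picked by symbol from the 17493 genes counted in single cells of the first instar larval brain, and all 8 symbols were found. Brain lobes of wild-type Canton-S larvae, raised at 25 °C in 12 h light and 12 h dark, were dissociated after normal feeding or after 4 h of starvation that began 11 h after larval hatching according to the labels. The normal group comprised 4 droplet libraries from 3 dissections (Normal A, B and C) and the starvation group 3 libraries from 2 dissections (Starvation A and B). Each dissection pooled the brains of many larvae, so an experiment, not a cell or an animal, was the unit of replication. The ventral nerve cord had been removed, no transgene or mutation was present in either group, and the time of day of dissection is not given in the sources used here.

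In the fly clock, the bHLH-PAS proteins encoded by Clk and cyc bind E-boxes together and activate per and tim, whose products return to the nucleus and block that activation. An interlocked loop consists of the bZIP proteins encoded by vri, which represses Clk, and Pdp1, which activates it. The bHLH-Orange protein encoded by cwo competes at E-boxes, and cry encodes the blue-light photoreceptor that triggers degradation of TIM. In the larval brain, the loop is known from a small set of lateral neurons that make the neuropeptide PDF and from a few dorsal neurons. RNA of most of these genes rises and falls over the day, so the levels below hold for an unknown phase.

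On the BDGP6 annotation, per lay on chromosome X at 2685580 to 2692780 on the plus strand, and dyw overlapped its exons on the opposite strand. The gene tim lay on 2L at 3493986 to 3508119 on the minus strand, with a long noncoding RNA over its exons on the opposite strand and a snoRNA within them on its own. Clk lay on 3L at 7763233 to 7775603 (minus strand) and Pdp1 close by on 3L at 7811458 to 7867369 (minus strand, 13 annotated transcripts). The single-transcript gene cyc lay on 3L at 19813770 to 19815938 on the minus strand. For cry, on 3R at 19212154 to 19215442 (plus strand), the exons overlapped vib on the opposite strand and a long noncoding RNA on the same strand. Finally, vri lay on 2L at 5288944 to 5311223 and cwo on 3R at 10388258 to 10400752, both on the plus strand, and neither shared exonic sequence with another gene. Whether the counting used strand is not stated in the sources used here, so reads of per, tim and cry could include reads of their overlapping partners. Counts were per gene, and isoforms of Pdp1 or tim could not be told apart.

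The libraries held 957 to 1851 cells each, with a median of 2228 to 13486 UMIs (unique molecular identifiers, each standing for 1 captured RNA molecule) per cell, and 8696 of 9353 cells passed the filters. Clusters were named from marker lists, without use of the clock genes, as neurons (5134 cells), undifferentiated neurons (808), glia (586), neural progenitor cells or NPCs (487), optic lobe epithelium (189) and muscle (106), while 1287 cells stayed unnamed. Of the unnamed cells, 769 in 3 clusters had NPC markers in the lead. A barcode occurred in 2 or more libraries 664 times, and 1095 cells (11.7%) had over 3 times as many UMIs under the same barcode in another library. Normal B held 833 of the 1095. Of the 487 NPCs, 220 were such cells, as were 108 of the 189 cells of optic lobe epithelium. Removing all cells of this kind left the number of clock genes called as it was in each comparison in which this was tried. Normal A was the shallowest experiment and contributed 90.8% of the 633 cells of 1 neuron cluster, whereas Normal C contributed no cell to the cluster that held most Pdf neurons.

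The 8 genes differed widely in how many cells they were found in. At least 1 Pdp1 UMI was counted in 6924 of the 8696 cells, with up to 110 in a single cell and 62576 in all. For cwo, 3904 UMIs lay in 2639 cells. For cyc, 964 UMIs lay in 878 cells and no cell had more than 3. The repressor genes were rarer, with 303 UMIs of per in 280 cells and 83 UMIs of tim in 65 cells. There were 282 UMIs of vri in 227 cells, 39 UMIs of Clk in 23 cells and 33 UMIs of cry in 19 cells. Among cells with per, 93.6% had exactly 1 UMI. Neurons made up 59.0% of the cells and held 53.4% of all UMIs. They held 87.2% of the Clk UMIs, 85.8% of those of per, 85.2% of those of Pdp1, 75.5% of those of cyc and 63.3% of those of cwo, but 35.1% of those of vri. Intervals, limits and shares given here cover counting error only.

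**Figure D1:**
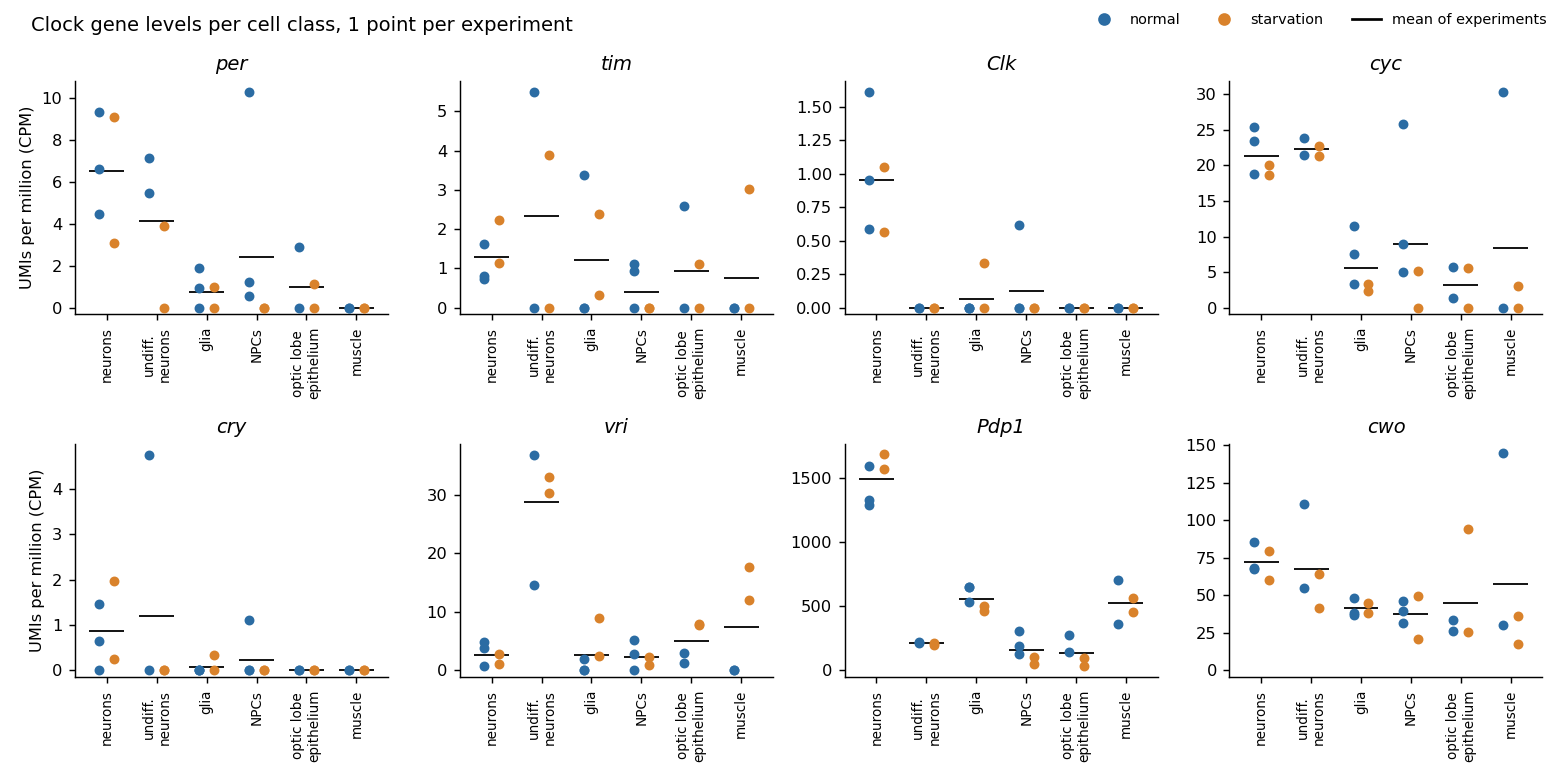
Level of each clock gene in CPM (UMIs of the gene per 1000000 UMIs, vertical axis) in 6 cell classes, 1 point per experiment with at least 10 cells of the class and a bar at the mean. In the Pdp1 panel neurons lie above every other class, in the vri panel undifferentiated neurons have the highest mean, and in the Clk panel most points outside neurons are at 0.

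Levels were computed as CPM, the UMIs of a gene per 1000000 UMIs of the summed cells of a class in an experiment with at least 10 such cells, and are given as mean ± SD over experiments. Among the activator genes, cyc was present in each of the 6 classes. In neurons, cyc stood at 25.4 CPM in Normal A, 23.4 in Normal B, 18.8 in Normal C, 18.6 in Starvation A and 20.1 in Starvation B (21.3 ± 3.02 CPM, n = 5). Undifferentiated neurons were at the same level, 22.3 ± 1.17 CPM (n = 4). In glia, cyc was at 11.5, 3.37, 7.58, 3.32 and 2.39 CPM in the same order of experiments, below neurons in each. Its mean was 8.99 ± 9.90 CPM in NPCs (n = 5), 3.17 CPM in optic lobe epithelium and 8.34 ± 14.7 CPM in muscle (n = 4), the last resting on 2 UMIs. The partner gene Clk was found in neurons of all 5 experiments, at 0.57 to 1.61 CPM (2 to 17 UMIs). Outside neurons it was nearly absent, with 1 UMI in glia, 2 in NPCs and 0 in undifferentiated neurons, optic lobe epithelium and muscle. In the 808 undifferentiated neurons, 0 cells with Clk allowed a share of up to 0.371%, against 0.351% of neurons, so the difference was not detectable at this depth.

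For the repressor genes, per was highest in neurons, at 9.34 CPM in Normal A, 6.62 in Normal B, 4.46 in Normal C, 9.09 in Starvation A and 3.11 in Starvation B (6.52 ± 2.76 CPM, n = 5). In undifferentiated neurons per was at 4.13 ± 3.06 CPM (n = 4) and in glia at 0.77 ± 0.80 CPM (n = 5), where 5 UMIs were counted in 586 cells. No per UMI was found in the 106 muscle cells, which limits the share of cells with a counted UMI to 2.83% and not the share that express the gene. Transcripts of tim were at 1.30 ± 0.62 CPM in neurons (n = 5, 55 UMIs), 2.34 ± 2.79 CPM in undifferentiated neurons (n = 4, 5 UMIs) and 1.22 CPM in glia (3 UMIs). The photoreceptor gene cry reached 0.87 ± 0.83 CPM in neurons (n = 5, 23 UMIs), and Normal C had none. In the other classes cry amounted to 4 UMIs in undifferentiated neurons, 2 in NPCs, 1 in glia and 0 in muscle and optic lobe epithelium. For per, tim, Clk and cry the ranges over experiments of classes next to each other in level overlapped, and these 4 genes were too low to pass the count filter of the test between classes.

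In the interlocked loop, vri and Pdp1 were highest in different classes. Pdp1 stood at 1587 CPM in neurons of Normal A, 1287 in Normal B, 1327 in Normal C, 1568 in Starvation A and 1681 in Starvation B (1490 ± 173 CPM, n = 5). Glia followed with 559 ± 85.6 CPM (n = 5) and muscle with 520 ± 145 CPM (n = 4), whose ranges overlapped. Undifferentiated neurons had 210 ± 8.44 CPM (n = 4), NPCs 156 ± 98.9 CPM (n = 5) and optic lobe epithelium 137 ± 103 CPM (n = 4). The lowest neuron value was above the highest glia value, 650 CPM, and the lowest muscle value, 364 CPM, was above every value of undifferentiated neurons. By contrast, vri was highest in undifferentiated neurons, at 14.6 CPM in Normal A, 36.9 in Normal B, 33.0 in Starvation A and 30.3 in Starvation B, while neurons ranged from 0.80 to 4.85 CPM. The groups did not overlap. A vri UMI was found in 62 of 808 undifferentiated neurons (7.67%, 95% exact interval 5.93 to 9.73%), and after thinning each cell to 1000 UMIs in 3.96% of them against 0.214% of neurons. In glia, vri varied from 0 CPM in Normal B and Normal C to 8.96 CPM in Starvation A, which held 27 of the 29 glial UMIs. The repressor gene cwo was found in every class, at 72.2 ± 10.2 CPM in neurons (n = 5), 67.9 CPM in undifferentiated neurons (n = 4, 41.7 to 111 CPM), 57.2 ± 58.8 CPM in muscle (n = 4), 44.9 CPM in optic lobe epithelium (n = 4), 41.4 ± 4.92 CPM in glia and 37.5 ± 11.6 CPM in NPCs (both n = 5). Only in the order of Pdp1 did any neighbouring classes have ranges that did not overlap.

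The classes were compared with neurons by edgeR's quasi-likelihood test on the summed UMI counts with the experiment as a block, and p-values were adjusted over 7409 genes by the Benjamini-Hochberg method. The count filter kept cyc, vri, Pdp1 and cwo. A gene below 14.5 CPM had under 10 UMIs in a sum of median depth, so vri passed the filter only through undifferentiated neurons and cyc mainly through neurons and undifferentiated neurons, where each was high. Their calls therefore carry a choice of genes, and the fit without the filter, which tests every gene, is given beside them. Cell classes differed in a large part of all genes, so the share of clock genes called is to be read against that background. Undifferentiated neurons had 1 of the 4 higher (vri) and 1 lower (Pdp1), where 44.7% of all genes were called. The change of vri was 2.87 ± 0.46 on the log2 scale (SE, adjusted p = 5.44e-06) and that of Pdp1 was -3.03 ± 0.33 (adjusted p = 5.74e-09), while cyc gave -0.20 ± 0.32 (adjusted p = 0.675). Without the filter, vri gave 2.78 ± 0.40 (adjusted p = 5.26e-11). With the filter but without Normal B or Starvation A, vri did not pass it and the number called was 1. The class held different clusters in different experiments. In Normal A, 211 of the 214 cells lay in cluster 13, whose leading genes include Hsp26 and Hsp68, which encode heat shock proteins, where vri was at 14.8 CPM (8 UMIs). In Normal B, Starvation A and Starvation B, 360, 118 and 103 cells lay in cluster 3, with vri at 37.4, 34.0 and 30.8 CPM. NPCs had 3 of 4 lower against 63.2% of all genes called, namely Pdp1 (-3.22 ± 0.30, adjusted p = 5.3e-11), cyc (-1.31 ± 0.32, adjusted p = 0.00057) and cwo (-0.83 ± 0.27, adjusted p = 0.00779). The call of cwo was lost without Starvation A (-0.67, adjusted p = 0.0742).

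In glia, 2 of the 4 tested genes were lower than in neurons, a share below the 62% of all genes called there. These were cyc (-1.61 ± 0.36, adjusted p = 0.000245) and Pdp1 (-1.06 ± 0.28, adjusted p = 0.00121), and vri did not pass the test (0.94 ± 0.56, adjusted p = 0.143). Optic lobe epithelium also had 2 lower, with 58.6% of all genes called, at -3.17 ± 0.34 for Pdp1 (adjusted p = 9.4e-10) and -2.03 ± 0.47 for cyc (adjusted p = 0.00033). In muscle, 2 were lower, with 44.8% of all genes called, Pdp1 by -1.41 ± 0.32 (adjusted p = 0.000458) and cyc by -2.33 ± 0.85 (adjusted p = 0.0244). The cyc call in muscle was lost without Normal B (-1.84, adjusted p = 0.143) and without Starvation A (-2.38, adjusted p = 0.132). Without the filter, cyc was lower in the same 4 classes, from -1.38 ± 0.30 in NPCs (adjusted p = 1.61e-05) to -2.49 ± 0.79 in muscle (adjusted p = 0.00695). Without the filter per could also be tested and was lower in glia (-2.50 ± 0.63, adjusted p = 0.000329), NPCs (-2.29 ± 0.57, adjusted p = 0.000238) and optic lobe epithelium (-2.17 ± 0.76, adjusted p = 0.0137), while per in muscle was at 0. With 4 genes tested, the filtered counts lay near the share called among all genes and are no result about the clock genes as a group. No member was called higher in glia, NPCs, optic lobe epithelium or muscle.

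The neuron markers elav, nSyb, Syt1 and brp were also counted outside neurons. How much of this was free RNA, meaning RNA of broken cells in a droplet, was not tested. The markers stood in glia at 7.23 to 12.1% of their pooled neuron level and in NPCs at 4.76 to 17.3%. In optic lobe epithelium and muscle they lay between 5.2 and 24.0%. Pdp1 in glia was at 35.5% of its neuron level and in muscle at 38.9%, above each of these markers. In NPCs (9.48%) and optic lobe epithelium (10.4%) Pdp1 lay within the range of the markers, as per did in NPCs (14.2%). The part of free RNA was not tested for any of these levels, those of glia and muscle included. For glial per, the 13.0% of the neuron level rested on 5 UMIs.

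Among glia, Pdp1 was found in each subtype that markers could name. Surface glia, which form the blood-brain barrier, had 634 ± 89.7 CPM (n = 4) and cortex glia, which wrap neuronal cell bodies, 593 ± 166 CPM (n = 5). Astrocyte-like glia, which enter the neuropil and clear transmitter, had 279 and 335 CPM in the 2 experiments with at least 10 such cells, below the lowest surface or cortex value (408 CPM). A glial cluster that markers could not name had 558 ± 167 CPM (n = 5). For cyc the pooled level was 13.0 CPM in astrocyte-like glia (8 UMIs) and 3.35 to 4.22 CPM in the other subtypes (5 to 7 UMIs each). Both tim and cry were at 0 to 2 UMIs in each subtype, as was Clk. In astrocyte-like glia, 0 of 79 cells had a tim or Clk UMI. No test was run between subtypes, since astrocyte-like glia reached 10 cells in only 2 experiments.

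A list of 18 clock regulators held kinases, phosphatases, ligases, translation factors and the nuclear receptor gene Eip75B. Against neurons, 14 of 18 were lower and 0 higher in glia, 10 lower and 2 higher in NPCs, 5 lower and 4 higher in undifferentiated neurons, 9 lower and 3 higher in optic lobe epithelium, and 11 lower and 0 higher in muscle. Of all genes tested, 32.9% were lower and 29.1% higher in glia, 32.0% and 31.2% in NPCs, 26.0% and 18.7% in undifferentiated neurons, 30.3% and 28.4% in optic lobe epithelium, and 24.9% and 19.9% in muscle. The kinase genes sgg and nmo, whose products phosphorylate TIM or PER, and Eip75B were lower in all 5 classes. The phosphatase subunit gene tws was higher in NPCs (0.92 ± 0.18, adjusted p = 5.2e-05) and in undifferentiated neurons (1.15 ± 0.19, adjusted p = 1.1e-05), and lower in glia (-0.46 ± 0.20, adjusted p = 0.046). The median log2 change of the list was -0.72 in glia, -0.51 in NPCs, -0.06 in undifferentiated neurons, -0.60 in optic lobe epithelium and -0.96 in muscle, where the median over all genes lay between -0.16 and -0.01. Of 18 genes known from clock neurons, mostly encoding neuropeptides, channels, receptors and transcription factors, 16 were tested and 13 to 15 were lower in each class, where the same shares of all genes apply. ITP, an ion transport peptide gene, was higher in glia (1.24 ± 0.23, adjusted p = 1.5e-05).

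Within neurons, the 14 clusters differed most in the rare genes. The clusters were built without the clock genes, yet their values are given as a description. Cluster 12, with 245 cells or 4.77% of neurons, was led by SIFa and Ms, which encode neuropeptides, the transcription factor gene Rfx and the opsin gene Rh7. It held 20 of the 34 neuronal Clk UMIs (58.8%), 19 of the 55 tim UMIs (34.5%) and 32 of the 99 vri UMIs (32.3%). Its Clk level was 11.6 CPM, and 9 of the 14 clusters had no Clk. Its tim level was 11.0 CPM against a median of 1.10 CPM over the 14 clusters, and its vri level 18.5 CPM against a median of 1.08 CPM. Starvation A held 16 of the 19 tim UMIs, 13 of the 20 Clk UMIs and 12 of the 32 vri UMIs of the cluster. Without Starvation A the levels were 3.23 CPM of tim, 7.54 CPM of Clk and 21.5 CPM of vri, and Normal A had no tim there. In Normal C only 6 cells belonged to this cluster, and none had a tim, Clk, cry or vri UMI.

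**Figure D2:**
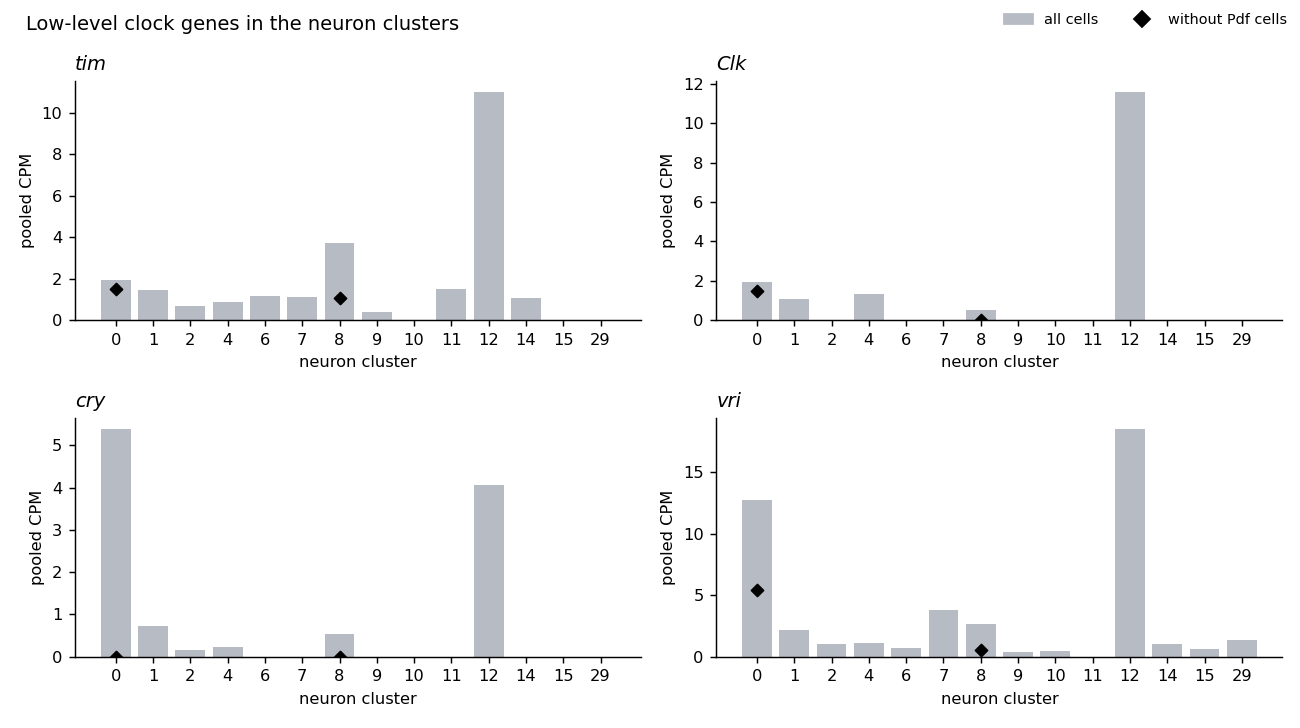
Pooled level in CPM (bars, summed over all experiments) of tim, Clk, cry and vri in the 14 neuron clusters, with diamonds for the level without Pdf neurons in the clusters that hold any. The bars of tim, Clk and vri are highest in cluster 12, at 11.0, 11.6 and 18.5 CPM, and the cry bar of cluster 0 falls to 0 without the Pdf neurons.

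The common genes varied less. Levels of cyc ran from 10.4 to 28.3 CPM over the 14 clusters, of cwo from 23.5 to 105 CPM and of Pdp1 from 811 to 3068 CPM. Levels of per ran from 1.48 to 16.6 CPM, the highest in cluster 0. That cluster also held 11 of the 23 neuronal cry UMIs (47.8%), all of them in Pdf neurons, and no other cell of it had a cry UMI.

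Cells with several clock genes were few. Of 18 neurons with Clk, 10 also had tim (55.6%) and 12 had vri (66.7%), where 0.818% of neurons had tim and 1.21% had vri. All 18 had Pdp1, as did 97.2% of neurons. Of 42 neurons with tim, 10 had Clk (23.8%). At least 2 of tim, Clk, cry and vri were found together in 20 cells, of which 5 were Pdf neurons and 10 others lay in cluster 12. The 2 cells with the most Clk were a Starvation A cell with 7 Clk, 3 tim and 4 vri UMIs and a Normal C cell with 6 Clk, 2 tim and 2 vri UMIs. Neither had a Pdf UMI, and they had 25 and 77 Rh7 UMIs. Rh7, chosen after these cells had been seen, was then read the other way. Of 59 cells with 10 or more Rh7 UMIs, 7 had Clk (11.9%), 7 had tim and 6 had vri, and none had cry. In the 14 of them in cluster 12, Clk was found in 6 (42.9%), tim in 6 and vri in 5. Of the other 231 cells of that cluster, 3 had Clk (1.30%). The 2 cells with the most Clk were among the 59, and the Starvation A cell among the 14. These shares were therefore partly set by the choice of Rh7. The 59 cells had a median of 9119 UMIs, against 6571 in neurons other than Pdf neurons. Pdfr encodes the receptor of PDF. Of 16 cells with 10 or more Pdfr UMIs that were not Pdf neurons, 6 had Clk (37.5%), 5 had vri, 3 had tim and 0 had cry.

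Pdf neurons, taken as cells with 50 or more Pdf UMIs per 10000, numbered 11, with 3 in Normal A, 6 in Normal B and 2 in Starvation A. Normal C and Starvation B had none, although 361 and 51 Pdf UMIs were counted in their kept cells. The threshold fell in a gap, as the 11 cells had 126 and then 564 to 1218 Pdf UMIs per 10000, while the highest cells outside had 17.5 and 16.2. No barcode of the 11 was shared with another library. Their depth was 1192 to 6020 UMIs (median 3096), less than the median of 6571 UMIs of other neurons. Of the neuron markers, nSyb was found in 10 of them, Syt1 in 8 and elav in 4. Of the 18 clock neuron genes, Pdfr and Mef2 were found in 10, Hr38 and Hr51 in 8, Nplp1 in 6, Fer2 in 5, Dh31 in 4, ITP in 3, Irk1 in 2, and disco and AstC in 1, while sNPF, na, gl, CNMa, NPF, Trissin and CCHa1 were found in none.

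Pdp1 was found in 11 of 11 Pdf neurons, with 8, 7 and 1 UMIs in those of Normal A, 10, 29, 15, 29, 16 and 13 in those of Normal B, and 43 and 12 in those of Starvation A. UMIs of cwo numbered 0, 2 and 0 in Normal A, 1, 2, 6, 5, 3 and 3 in Normal B, and 3 and 5 in Starvation A. For vri they numbered 3, 0 and 0 in Normal A, 0, 2, 2, 2, 2 and 1 in Normal B, and 4 and 3 in Starvation A. Thus 8 of 11 Pdf neurons had vri (72.7%, 95% exact interval 39.0 to 94.0%), against 1.05% of other neurons. Transcripts of cry were in 5 of 11 (45.5%, 95% exact interval 16.7 to 76.6%), with 3, 6 and 1 UMIs in 3 cells of Normal B and 1 UMI in each cell of Starvation A, against 5 of 5123 other neurons (0.0976%). Both intervals take cells, not experiments, as units, and no comparison with other neurons is drawn from them. In Normal A, 1 of the 3 Pdf neurons had vri and 0 had cry. The 11 cells held 36.4% of all cry UMIs and 0.0574% of all UMIs. After thinning to 1000 UMIs, cry remained in 3 of 11 against 0.0390% of other neurons, vri in 2 of 11 against 0.176%, and cwo in 8 of 11 against 6.40%. None of the 106 muscle cells had cry, and 5 had vri (4.72%) at a median of 3243 UMIs.

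The other members rested on few UMIs. A tim UMI was found in 2 of 11 Pdf neurons (18.2%) against 0.781% of other neurons, with 1 UMI in a Normal B cell and 5 in a Starvation A cell. For Clk it was 2 of 11 at 1 UMI a cell, against 0.312% of other neurons. Likewise per was found in 2 of 11 at 1 UMI a cell, against 4.61% of other neurons. With 2 of 11 cells the 95% exact interval is 2.28 to 51.8%. It covers counting error only and takes cells, not experiments, as units. No comparison with other neurons is therefore drawn from it. A single cyc UMI was found, in 1 of 11. At their summed depth in Normal A and B, 3 UMIs stood for 111 CPM, and other neurons had 24.1 CPM of cyc, so cyc was not detectable at this depth. Per cell, 1 to 7 of the 8 genes were found, at least 3 in 9 cells and at least 5 in 2.

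**Figure D3:**
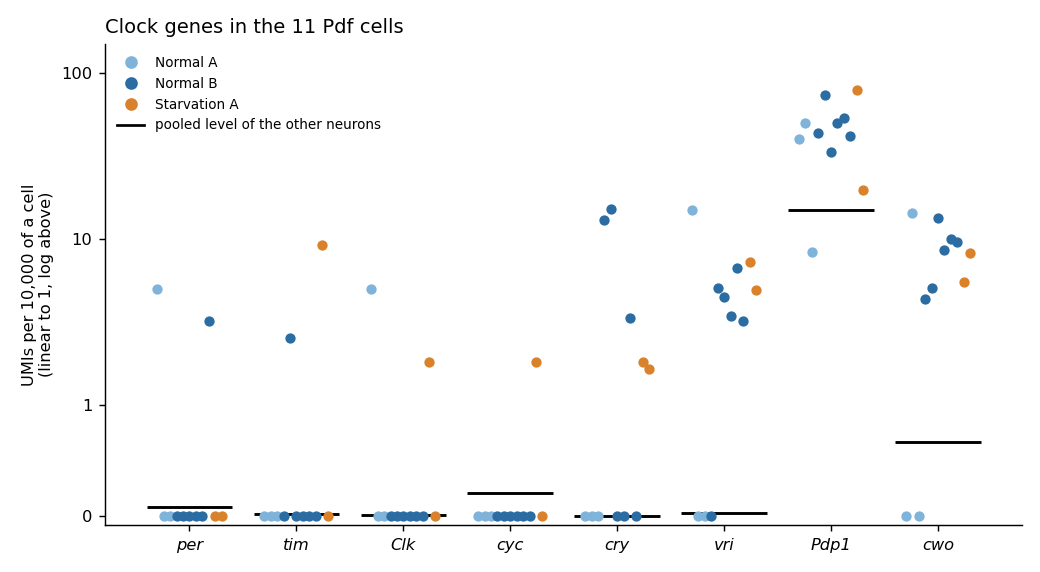
UMIs per 10000 of each clock gene in each of the 11 Pdf neurons (points, coloured by experiment, on an axis that is linear up to 1 and logarithmic above), with lines at the pooled level of the other neurons. Pdp1 has at least 1 UMI in every cell, vri in 8, cwo in 9 and cry in 5, whereas per, tim and Clk each appear in 2 cells and cyc in 1.

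In a summed comparison within each experiment, vri was at 655 CPM in the Pdf neurons of Normal A (3 UMIs from 1 cell), 399.6 CPM in those of Normal B and 611 CPM in those of Starvation A, against 2.90, 3.54 and 2.35 CPM in the other neurons. For cwo the values were 437, 888 and 698 CPM against 67.7, 83.1 and 59.5 CPM. Pdp1 was at 3493, 4973 and 4797 CPM against 1584, 1275 and 1566 CPM. In each experiment all of these were higher in Pdf neurons. For cry the pairs were 0 against 0.64 CPM, 444 against 0 CPM and 174 against 0.12 CPM.

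Normal A and Normal B had at least 3 Pdf neurons and entered the edgeR test with the experiment as a block, which left 1 residual degree of freedom. The p-values of this fit therefore rest mostly on a spread shared over all genes. Of 6267 genes, 55 were called (0.878%), 14 higher and 41 lower, while 2 of the 5 clock genes that passed the filter were called, both higher. These were vri (6.45 ± 1.19 on the log2 scale, adjusted p = 8.54e-05) and cwo (2.65 ± 0.73, adjusted p = 0.0365). Pdp1 gave 0.84 ± 0.57 (adjusted p = 0.889) and per 2.79 ± 2.22 (adjusted p = 0.889, 2 UMIs). At 2.90 and 3.54 CPM in the other neurons, vri was below the 6.40 CPM that the filter asked for and passed it only through the Pdf neurons, so the count of 2 is no support. Without the filter, where all 8 genes were tested, vri gave 6.43 ± 1.30 (adjusted p = 0.000768) and cry 9.85 ± 1.78 (adjusted p = 7.05e-05), while cwo (2.62, adjusted p = 0.0934), tim (4.74) and Clk (4.94, adjusted p = 0.979 for both) were not called. The sums of Pdf neurons were small, 4581 and 22523 UMIs, and the median change over all genes was -1.23, relative to which each of these values lay higher. The call of cwo did not hold with DESeq2 (adjusted p = 0.075) or when all deposited barcodes were used (adjusted p = 0.0967). With Starvation A added, a choice made after the data had been seen, 5 of 8 were called, where 260 of 6592 genes were. The 5 were vri (6.72), cwo (2.69), cry, tim and Clk. All but cwo passed the filter only through the few UMIs of the Pdf neurons. Against the other cells of the same cluster, also chosen afterwards, only cwo (3.40, adjusted p = 0.00359) and Pdp1 (1.40, adjusted p = 0.0833) could be tested.

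None of the 18 clock regulators was called in the main edgeR fit of Pdf neurons with Normal A and B, with a median of -0.90. With Starvation A added 1 was called, as was 1 of 7 tested against the other cells of the same cluster. Of 16 clock neuron genes tested in the main fit, 2 were higher. These were Pdfr (5.83 ± 0.82, adjusted p = 7.5e-09) and Hr38, which encodes an activity-regulated nuclear receptor (3.23 ± 0.63, adjusted p = 0.000199). Hr38 went the other way in the Pdf neurons of Starvation A, at 87.2 CPM (1 UMI) against 186 CPM in other neurons. Of the 11 Pdf neurons, 10 lay in cluster 0, whose leading genes included Gadd45, Arc1 and kay. With the clock genes left in the clustering, a cluster of 669 cells held all 11. Hr38 was among the leading genes of that cluster, so a raised level was not particular to Pdf neurons. The neuropeptide genes NPF and AstC had 0 UMIs in the 9 cells and were at least 3.59-fold and 6.21-fold lower than in the other neurons, counting 3 UMIs over the group as the floor. A single neuron held 76.4% of the NPF UMIs of Normal A and another 77.9% of those of Normal B. Without the richest neuron of each experiment the other neurons had 90.8 CPM of NPF, below the floor of 111 CPM, so that NPF gave no bound, and the bound for AstC was 4.23-fold. The called genes with the largest change were l(2)efl, which encodes a small heat shock protein, Pdfr, CG5023, CrebA, a transcription factor gene of the secretory pathway, and cv-2, which encodes a BMP-binding protein, at 4.44 to 5.92. In Normal B, 1 cell held 90.9% of the CG5023 UMIs and 1 cell 60.0% of those of l(2)efl. In Normal A, 1 cell held 77.8% of those of cv-2. UMIs of l(2)efl numbered 1 in Normal A and 0 in Starvation A. Pdfr, CG5023, CrebA and cv-2 were also higher in the Pdf neurons of Starvation A, the last 3 through 1 cell each. The lowest were natalisin, AstC, luna, kek1 and Vmat, the vesicular monoamine transporter gene. In the 9 cells of Normal A and B each had 0 UMIs and was at least 5.54-fold to 9.30-fold lower. Without the richest neuron of each experiment these bounds were 3.64-fold for natalisin and 4.23-fold to 8.66-fold for the others. The bounds hold for Normal A and B only. In the Pdf neurons of Starvation A, Vmat was at 174 CPM (2 UMIs) against 876 CPM in other neurons. There kek1 was at 174 CPM (2 UMIs) against 603 CPM and AstC at 87.2 CPM (1 UMI) against 290 CPM, while luna and natalisin had 0 UMIs.

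Starvation was compared with normal feeding between experiments with at least 3 cells of a class, 2 against 3, except for muscle, where Normal C had 2 cells and 2 experiments stood against 2. By edgeR's quasi-likelihood test none of the 6 clock genes tested in neurons was called, where 0.0124% of 8094 genes were. None of the 6 had an unadjusted p under 0.05 and DESeq2 called 0. Pdp1 averaged 1400 CPM in the normal and 1625 CPM in the starvation experiments, with overlapping groups, and its log2 change was 0.26 ± 0.21. The other changes were 0.85 ± 0.71 for tim, -0.18 ± 0.20 for cyc, -0.06 ± 0.23 for cwo, -0.04 ± 0.49 for per and -0.54 ± 0.78 for vri, with adjusted p-values of at least 0.818. An SE of 0.20 to 0.23 for cyc, Pdp1 and cwo set the precision, and the SE was 0.49 to 0.78 for per, tim and vri. The sign for vri and cwo turned without Normal B (0.04 for each), that for cwo also without Starvation A (0.17), and that for per turned without Normal A (0.17) and without Starvation B (0.44).

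**Figure D4:**
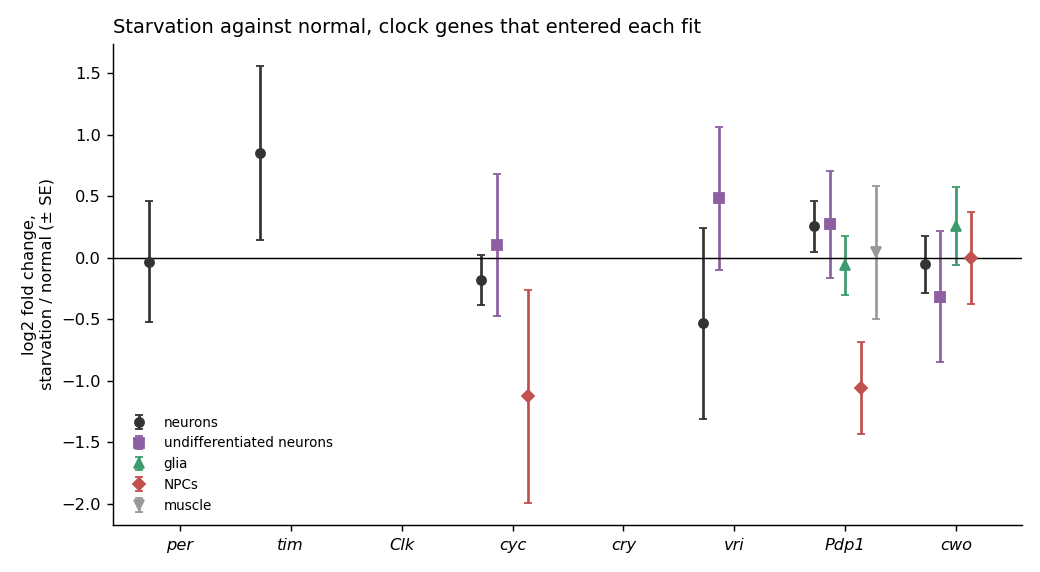
Log2 fold change of starvation against normal (points, with the SE as bars) for each clock gene that passed the count filter, by cell class, with a line at 0. Most bars cross 0, Pdp1 in NPCs lies at -1.06, and no point was called after adjustment over all genes.

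In glia, where 2.25% of 4303 genes were called, 0 of 2 tested members were called by edgeR, 0 had an unadjusted p under 0.05 and DESeq2 called 0. The changes were -0.06 ± 0.24 for Pdp1 and 0.25 ± 0.32 for cwo. In NPCs, 0 of 3 were called by edgeR or DESeq2 and 1 had an unadjusted p under 0.05, with 0% of all genes called. That gene was Pdp1, at 309, 187 and 131 CPM in Normal A, B and C against 104 and 49.3 CPM in Starvation A and B. The groups did not overlap, and the change was -1.06 ± 0.38 (unadjusted p = 0.0151, adjusted p = 0.759). In undifferentiated neurons 0 of 4 were called by edgeR or DESeq2 (with 3 cells in Normal C, and nearly all cells of Normal A in a cluster of their own), none at an unadjusted p under 0.05, with 0% of all genes called, and vri gave 0.48 ± 0.58 (adjusted p = 0.953). In muscle 0 of 1 and over all cells 0 of 7 were called by both tools, none at an unadjusted p under 0.05, with 0% of all genes called in each. The difference of the starvation effect between glia and neurons was called for 0 of 5 members by edgeR, again with 0% of all genes called. The 1 with an unadjusted p under 0.05 was vri, at 3.94 ± 1.30 (unadjusted p = 0.0107, adjusted p = 0.877), and glial vri came mostly from Starvation A. The starvation comparison could not be fitted in Pdf neurons, of which 9 were from normal and 2 from starvation experiments.

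Around the clock genes, none of the clock regulators was called under starvation in any class by edgeR with 5 experiments. With 7 libraries as samples Lsm12 was called higher in neurons (0.61, adjusted p = 0.043) and nmo lower in glia (-0.91, adjusted p = 0.0242), and nmo was also called in glia without the count filter (-1.02, adjusted p = 0.0499). Of the clock neuron genes, NPF was the exception by edgeR with 5 experiments, lower in neurons (-5.10 ± 0.39, adjusted p = 0.0117) and in glia (-3.31 ± 0.57, adjusted p = 0.0227). No clock neuron gene was called in neurons without Normal C, or in glia without Normal A or without Normal C. In neurons DESeq2 called 3 lower, and the fit without the count filter called 4 lower and 1 higher. In glia the fit without the count filter called 3 lower and 1 higher. In neurons NPF was at 631, 289 and 378 CPM in the normal against 13.1 and 11.0 CPM in the starvation experiments, and a single cell held 76.4, 77.9 and 90.6% of the normal UMIs. The number of cells with 20 or more NPF UMIs was 2, 2 and 1 against 2 and 0. In glia NPF was at 117, 33.7 and 51.1 CPM against 5.31 and 7.17 CPM, in 35.6, 7.89 and 71.7% of the normal glia, with no cell at 20 or more UMIs. The glial levels moved with the few rich neurons of the same experiments, and the part of free RNA was not tested.

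Genes with the pattern most like a clock gene were sought over the 27 class-by-experiment sums, as Pearson's r of log2(CPM + 5). The sums share libraries and depth, and the values are a description. For Pdp1, the 3 most alike were Octbeta2R (r = 0.922), Ald (0.921) and Hex-A (0.918). For cyc they were nAChRalpha2 (0.915), ADPS (0.915) and CG12913 (0.914). For vri they were dbr (0.893), Tpc1 (0.873) and Vps37B (0.863), and for cwo oxt (0.766), CG17360 (0.763) and CG3309 (0.753). The other 4 members were below 5 CPM on average and were left out.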

How the data were processed

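The authors deposited raw UMI counts per gene and cell for 7 droplet libraries, made with Cell Ranger on a FlyBase annotation according to the submitters' processing notes and the study's methods. The aggregated matrices, for which no normalization mode was set per the study's methods, held the same counts as the separate libraries. Cells with 200 to 4500 genes and at most 20% mitochondrial UMIs were kept. Cells were clustered in Seurat (5.3.0) with the 8 clock genes and 36 related genes held out, and clusters were named from marker lists (at least 3 markers). Scrublet (scanpy 1.11.5) called 41 doublets (0.471%), which is too few to have worked, so none were removed and leaving out the 5% highest scores was an alternative. Counts were summed per class and experiment, with libraries linked to experiments through the study's sequencing table. edgeR (4.0.16, TMM, filterByExpr, quasi-likelihood test, Benjamini-Hochberg threshold 0.05) was the main test and DESeq2 (1.42.0) an alternative. Further alternatives were other size factors, no count filter, each experiment left out, 7 libraries as samples, other Pdf thresholds, and cells without repeated barcodes. Named genes were the 8 members, called genes of the regulator and clock neuron lists, the 5 most raised and lowered called genes in Pdf neurons (average log2 CPM of at least 5), and the 3 genes most like each member. The members and lists were chosen with earlier results of these data known. No count came from outside the 7 libraries. In the main starvation fits within a class, p-values measure the spread between dissections of pooled larvae. In the class fits with the experiment as a block, they measure how far the difference between groups of cells varied from dissection to dissection. The Pdf fit left 1 residual degree of freedom. Its p-values rest mostly on a spread shared over all genes, not on how each gene varied between dissections.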

Additional observations from a re-analysis of the deposited data

Results flagged for a closer look

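Pdp1 over all kept cells stood at 1194 CPM in the library of Normal A, away from 776, 800.2 and 832 CPM in the other normal libraries. Its gap to the nearest library was 0.866 of the whole range, above Dixon's 95% critical value for 4 samples. The values of 800.2 and 832 CPM came from 2 libraries of the same dissection, Normal B. The 4 values are therefore not independent, and the critical value does not strictly apply. Of the 8 clock genes looked at in this way, this was the 1 that stood out. Chance would flag about 1 in 20 groups of independent samples. Normal A was also the shallowest library, with a median of 2228 UMIs per cell. In neurons alone its Pdp1 level was 1587 CPM, again above Normal B (1287 CPM) and Normal C (1327 CPM), with Starvation A at 1568 CPM and Starvation B at 1681 CPM.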

How the results depend on the processing

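Of 316 alternative values of clock gene changes, 302 kept their direction and their side of the threshold, 6 lost and 1 gained a call, and 7 turned in sign, all of the latter in uncalled starvation changes. Leaving out an experiment gave, for starvation in neurons, -1.35 to 0.037 for vri, -0.32 to 0.17 for cwo and -1.01 to 0.44 for per, and -0.21 to 0.012 for Pdp1 in glia. With 7 libraries as samples, per in neurons gave 0.16. Of the 288 alternatives for starvation, 1 called a clock gene. That was the replicate block, in which the label numbers were treated as paired libraries, with Pdp1 in NPCs at -1.14 (adjusted p = 0.0436), and 1 member called there. Libraries of the same number did not deviate together (correlations of -0.0435 to 0.106 in neurons), so the numbers do not pair them. The replicate block called 75 genes in neurons, 162 in glia, 37 in NPCs, 25 in undifferentiated neurons and 57 over all cells, against 1, 97, 0, 0 and 0 with 5 experiments. The 7 libraries without it called 187, 459, 1, 13 and 432. DESeq2 called 107 in neurons, 4 in NPCs, 2 in undifferentiated neurons and 217 over all cells. Without the count filter the numbers were 314 in neurons, 389 in glia, 61 in NPCs, 20 in undifferentiated neurons, 66 in muscle and 169 over all cells. DESeq2 size factors gave 3 in undifferentiated neurons, and removing repeated barcodes gave 2 in NPCs. Leaving out an experiment gave 0 to 2 in neurons, 1 (without Normal C) to 208 (without Normal B) in glia, 0 to 1 in NPCs, 0 to 2 in undifferentiated neurons, 0 to 110 in muscle and 0 to 1 over all cells. Clock genes called in Pdf neurons numbered 1 with DESeq2, with all deposited barcodes and against the same cluster, and 5 with Starvation A added, against 2. All genes called there numbered 30 with DESeq2, 29 with DESeq2 size factors, 182 with 7 libraries and 260 with Starvation A added, against 55. The Pdf comparison could not be fitted with an experiment left out. Against neurons, 1 to 2 clock genes were called in undifferentiated neurons and in muscle and 2 to 3 in optic lobe epithelium with an experiment left out, and 4 in optic lobe epithelium without the filter. With the clock genes left in the clustering, 99.2% of cells kept their class and 47 of 48 class levels moved by under 1 SD. Depth limits tim, Clk and cry, at 83 UMIs or fewer in all cells. The cause of these differences was not tested.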
